A study of Homo sapiens with 4 samples.

Results

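Immune checkpoint ligands are molecules with which a tumour cell restrains the immune cells that touch it. The 10 genes described here are CD274, PDCD1LG2, CD276, VTCN1, TNFRSF14, LGALS9, IDO1, NT5E, CD47 and PVR, and they were taken by symbol from a table of 28278 genes, which held all 10. They were measured by RNA sequencing in A549 cells, a human lung adenocarcinoma line, in 2 groups of 2 libraries. The OE_CBX7 group was a stable line made by lentiviral infection with a CBX7 expression construct. The Control group was a stable line made in the same way with a control construct, and its genotype is labelled WT. Both lines grew in the same serum-supplemented medium, and untransduced cells were not analysed here. Whether each line was a clone or a pool, and which promoter drove the constructs, is not given in the sources used here. The series asks what the chromobox protein CBX7, part of the canonical form of Polycomb repressive complex 1, does in lung adenocarcinoma cells.

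T cells carry inhibitory receptors that are engaged by ligands on the cells they inspect. PD-1 binds PD-L1 (CD274) and PD-L2 (PDCD1LG2), TIM-3 binds galectin-9 (LGALS9), BTLA and CD160 bind HVEM (TNFRSF14), and TIGIT binds the poliovirus receptor PVR. CD47 works on phagocytes through SIRP alpha as a signal that prevents engulfment. IDO1 and NT5E (CD73) are enzymes that act on the surroundings, IDO1 by degrading tryptophan to kynurenine and NT5E by producing extracellular adenosine. In many cell types interferons raise transcription of CD274, PDCD1LG2, LGALS9 and IDO1 through factors such as IRF1, and these 4 are called interferon-linked below, while the remaining 6 members are called other members.

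The gene values are estimated read counts, which summed to between 69877585 and 90765502 per library. Levels are given in CPM, the usual depth-scaled unit, here with library totals scaled by TMM, and fold changes are log2 values of OE_CBX7 over Control. A gene was called at a Benjamini-Hochberg adjusted p under 0.05 in edgeR's quasi-likelihood test across 17271 tested genes, of which 13.9% were called lower and 10.5% higher. On simulated counts with 200 changed genes, far fewer than were called here, this procedure made more false calls than that threshold allows. The size of the excess in these data was not tested. Calls near the threshold are best taken as less certain than their adjusted p states. With library totals in place of TMM, which moved the median of all genes by 0.066 (log2), 2033 genes were lower and 2487 higher, against 2399 lower and 1809 higher with TMM. CBX7 itself had 19.0 and 17.2 CPM in the OE_CBX7 libraries against 7.998 and 8.73 CPM in the Control libraries, a log2 fold change of 1.11 (SE 0.156, edgeR adjusted p = 0.000141), and construct and endogenous transcripts are not separated by a gene count. The epithelial keratins KRT8, KRT18 and KRT7 had over 1000 CPM in each library, whereas KRT19, EPCAM and CLDN4 had under 3 CPM in each. KRT7 was called lower (log2 fold change -0.29, edgeR adjusted p = 0.0342) and the epithelial factor ELF3 higher (0.50, edgeR adjusted p = 0.00270). The 8 epithelial markers summed to 12590 and 13637 CPM in OE_CBX7 and 13385 and 13674 CPM in Control. The labels do not say that the libraries came from separate cultures, and a p-value here thus rests on the spread of the sequenced samples alone, part or all of which may be technical. In bulk RNA, fewer expressing cells and less RNA per cell cannot be told apart. Each group was a single stable line, so an effect of CBX7 cannot be told apart from other differences between the lines. Below, fell and rose mean lower and higher in the OE_CBX7 line than in the Control line.

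Of the 10 checkpoint ligand genes, 7 were called lower in OE_CBX7 cells, 0 were called higher and 3 were not called. All 4 interferon-linked members fell, and CD274, LGALS9 and IDO1 were left at under 0.4 CPM in each OE_CBX7 library against 29.7 CPM or more in each Control library. Of the 6 other members, TNFRSF14 was listed at 0 in both OE_CBX7 libraries, NT5E and CD47 fell by 1.12 and 1.11 on the log2 scale, and CD276, VTCN1 and PVR were not called. The share of all tested genes that were called lower with a log2 fold change of -1 or below was 5.39%, and all 7 called members had a change of that size. In all 10 members the 2 groups did not overlap in CPM, which was also the case for 62.8% of tested genes.

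**Figure D1:**
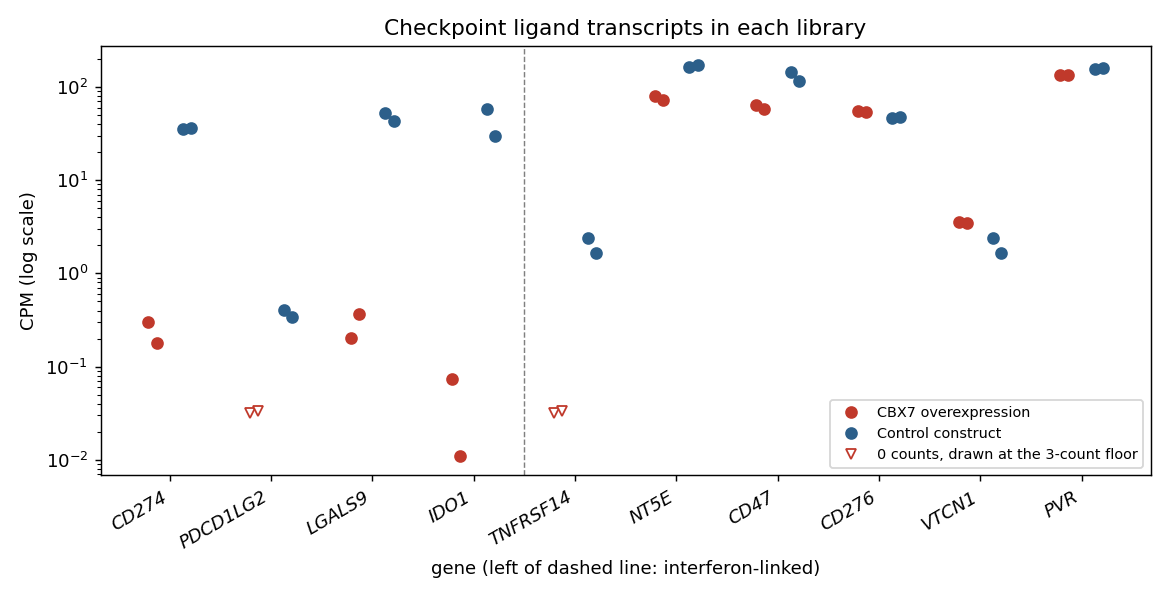
CPM of the 10 genes in each library on a log axis, with OE_CBX7 libraries (red) left of Control libraries (blue) and interferon-linked genes left of the dashed line. Open triangles stand for 0 counts and are drawn at the floor of 3 counts. CD274, LGALS9 and IDO1 are under 0.4 CPM in OE_CBX7, while PVR stays above 130 CPM in all 4 libraries.

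CD274 encodes PD-L1, the ligand of PD-1 against which many checkpoint antibodies are directed. It lies on chromosome 9, 5450542 to 5470554 (GRCh38.p14, plus strand). It had 28 and 16 counts in the OE_CBX7 libraries, or 0.299 and 0.177 CPM, against 3033 and 2449 counts in the Control libraries, or 35.2 and 35.9 CPM. The Control libraries were within 1 CPM of each other, and the OE_CBX7 libraries were far below both. The log2 fold change was -7.21 (SE 0.226, 95% interval -7.69 to -6.72, edgeR adjusted p = 1.6e-11), a 148-fold lower level, and 0.527% of tested genes had a more negative change.

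The promoter of CD274 is shown because it carries sequence motifs that interferon-activated factors are known to bind. That of LGALS9 is shown because it also held such a motif, while promoters of PDCD1LG2 and IDO1 were not available. Promoters of CD47 and NT5E, which fell much less, are shown for comparison. TNFRSF14, listed at 0 in both OE_CBX7 libraries, held none of the motifs searched and is not shown. Whether the motifs bear on the falls was not tested. Each line gives the 250 bases before the RefSeq transcription start and the start base itself, in the gene's own direction (RefSeq, GRCh38.p14). The windows are chr9:5450292-5450542 (plus strand) for CD274, chr17:27630938-27631188 (plus strand) for LGALS9, chr3:108091031-108091281 (minus strand) for CD47 and chr6:85449833-85450083 (plus strand) for NT5E. Capitals mark matches to the interferon-stimulated response element (ISRE) core (TTTC, any 2 bases, TTTC) and to the STAT-binding GAS element (TTCNNNGAA, where N is any base).
CD274 promoter: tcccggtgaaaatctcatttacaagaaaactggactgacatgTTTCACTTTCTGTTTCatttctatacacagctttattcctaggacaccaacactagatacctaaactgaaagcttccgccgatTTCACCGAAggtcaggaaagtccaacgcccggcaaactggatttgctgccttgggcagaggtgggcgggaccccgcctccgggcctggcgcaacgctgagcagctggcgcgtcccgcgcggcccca
LGALS9 promoter: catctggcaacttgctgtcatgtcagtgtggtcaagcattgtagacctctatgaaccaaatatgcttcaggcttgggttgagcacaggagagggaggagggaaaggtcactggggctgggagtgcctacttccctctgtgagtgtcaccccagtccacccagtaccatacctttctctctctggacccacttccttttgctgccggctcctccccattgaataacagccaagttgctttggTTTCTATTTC
CD47 promoter: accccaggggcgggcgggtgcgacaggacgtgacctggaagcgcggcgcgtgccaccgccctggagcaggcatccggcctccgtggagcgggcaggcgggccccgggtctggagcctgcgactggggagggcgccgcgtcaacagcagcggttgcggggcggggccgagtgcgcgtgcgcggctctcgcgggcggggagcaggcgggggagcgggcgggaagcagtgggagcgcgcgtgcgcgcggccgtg
NT5E promoter: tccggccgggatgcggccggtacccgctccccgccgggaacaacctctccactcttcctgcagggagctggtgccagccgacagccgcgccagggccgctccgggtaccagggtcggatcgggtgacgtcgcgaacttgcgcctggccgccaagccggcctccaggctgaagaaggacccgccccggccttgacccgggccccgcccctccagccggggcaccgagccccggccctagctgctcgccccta

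CD274 held 2 ISRE cores that overlapped by 4 bases, TTTCACTTTC from position -208 and TTTCTGTTTC from position -202, counted from the transcription start, and a GAS element, TTCACCGAA, from position -125. LGALS9 held 1 ISRE core, TTTCTATTTC, which begins at position -9 and ends on the start base. Both strands of the whole 300-base window, 250 bases before to 50 after the start, were searched, also for the NF-kB motif (GGG, any 2 bases, TTTCC). Among 27305 RefSeq promoters of this length, 3.65% held an ISRE core, 7.88% a GAS element and 1.92% an NF-kB motif. The table held 8 of the 10 members, without PDCD1LG2 and IDO1. In CD276, VTCN1, TNFRSF14, NT5E, CD47 and PVR none of the 3 motifs was found in this window. Only 1 start per gene was searched. The start used for TNFRSF14 (2556371) lies inside its gene span, which begins at 2554234. That used for CD276 (73684383) likewise lies inside a span that begins at 73683944. Starts further upstream in these genes were not searched. The base composition also differed: G and C made up 54.8% of the 250 bases upstream of CD274 and 51.6% of those of LGALS9, against 75.2% for NT5E, 79.6% for CD47, 80.8% for CD276 and 70.0% for PVR. VTCN1, at 58.4%, and TNFRSF14, at 58.8%, lay nearer to CD274 and LGALS9. These matches describe letters in a window, not bound sites.

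PDCD1LG2 encodes PD-L2, the other PD-1 ligand, and lies beside CD274 on chromosome 9, 5510531 to 5571282. It was a weakly expressed gene, with 0 counts in both OE_CBX7 libraries and 35 and 23 counts in the Control libraries, or 0.406 and 0.337 CPM. The gene INCR1 overlaps both PDCD1LG2 and CD274, and whether counting used strand is not given. Whether some of the PDCD1LG2 counts are reads of INCR1 was not tested. Against a floor of 3 counts per library the level of PDCD1LG2 was at least 11.4-fold lower in OE_CBX7 cells (edgeR adjusted p = 0.00814). That call needed both Control libraries, since the adjusted p was 0.0737 without Control library 1 and 0.0580 without Control library 2. Estimated counts of 0 can also be failed estimates, in which case the bound would not apply.

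Genes around the PD-1 ligands did not share the size of their fall. Within 500 kb on either side of the pair there were 11 other protein-coding genes, of which 9 were tested, 2 were lower, 2 were higher and 5 were not called. Over all tested genes 13.9% were lower and 10.5% higher, and so few neighbours cannot be told apart from these shares. JAK2, a kinase of interferon gamma and cytokine receptors, fell to 14.6 ± 0.845 CPM in OE_CBX7, against 31.4 ± 6.35 CPM in Control (SD, n = 2 each), a log2 fold change of -1.10 (edgeR adjusted p = 0.000129). PLGRKT, a plasminogen receptor and the nearest neighbour on the JAK2 side, was at 16.1 ± 2.96 CPM in OE_CBX7 and 15.6 ± 1.17 CPM in Control (SD, n = 2 each, edgeR adjusted p = 0.872). RIC1, the nearest on the other side, was at 42.2 ± 3.09 CPM in OE_CBX7 and 48.2 ± 7.91 CPM in Control (SD, n = 2 each, edgeR adjusted p = 0.320). INSL4, a relaxin-family hormone, and ERMP1, an endopeptidase of the endoplasmic reticulum, rose by log2 fold changes of 1.24 and 0.78 (edgeR adjusted p of 1.29e-05 and 0.000236). RANBP6 was the other gene called lower, with a log2 fold change of -0.43 (edgeR adjusted p = 0.0453). Its adjusted p was 0.400 without Control library 1, 0.184 without OE_CBX7 library 1 and 0.0660 without OE_CBX7 library 2.

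**Figure D2:**
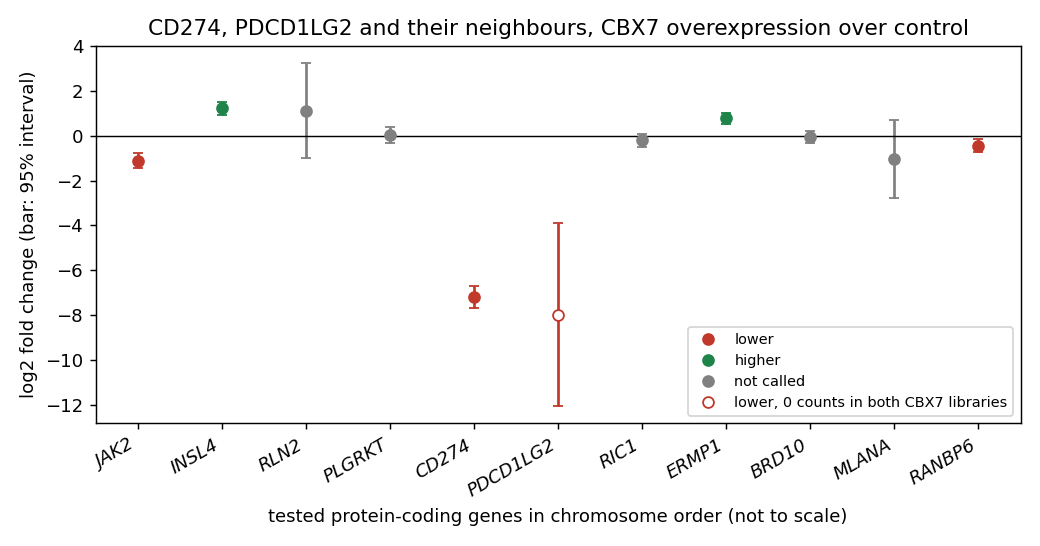
Log2 fold change of OE_CBX7 over Control, with 95% intervals, for the tested protein-coding genes around CD274 and PDCD1LG2 in chromosome order, not to scale. The pair stands at -7.21 and -7.98, with PDCD1LG2 drawn as an open symbol because its value is fitted from 0 counts in OE_CBX7, while its neighbours lie between -1.10 and 1.24.

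LGALS9, a galectin that binds sugar chains on TIM-3 and other receptors, lies on chromosome 17, 27631188 to 27649560. It had 19 and 33 counts in the OE_CBX7 libraries, or 0.203 and 0.366 CPM, against 4499 and 2951 counts in the Control libraries, or 52.2 and 43.2 CPM. Both OE_CBX7 libraries were more than 100 times below both Control libraries. The log2 fold change was -7.39 (SE 0.231, 95% interval -7.89 to -6.89, edgeR adjusted p = 1.6e-11). The near-identical copies LGALS9B (17 and 44 counts in OE_CBX7, 25 and 15 in Control) and LGALS9C (27 and 6 counts in OE_CBX7, 19 and 7 in Control) were low in all libraries and not called. How reads shared with them were assigned is not given, so the low LGALS9 counts in OE_CBX7 are uncertain.

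IDO1, the dioxygenase that opens the tryptophan ring, lies on chromosome 8, 39913891 to 39928790. It had 7 and 1 counts in the OE_CBX7 libraries, or 0.0748 and 0.0111 CPM, against 4927 and 2029 counts in the Control libraries, or 57.2 and 29.7 CPM. Both groups varied within themselves more than CD274 did, yet the gap between them was much wider. The log2 fold change was -9.92 (SE 0.767, 95% interval -12.20 to -7.64, edgeR adjusted p = 0.00463). Its size rests on few reads, and it was -11.75 without OE_CBX7 library 1, -9.15 without OE_CBX7 library 2, -9.37 without Control library 1 and -10.31 without Control library 2.

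TNFRSF14 encodes HVEM, a TNF receptor family member that restrains T cells through BTLA and CD160, and lies on chromosome 1, 2554234 to 2563829. It was listed at 0 counts in both OE_CBX7 libraries, against 204 and 114 counts in the Control libraries, or 2.37 and 1.67 CPM. Against the floor of 3 counts per library this was at least 61.9-fold lower (edgeR adjusted p = 5.84e-06). The floor covers counting error only, and the 0 counts can also be failed estimates, in which case the bound would not apply. TNFRSF14 was 1 of 9 genes listed at 0 in both OE_CBX7 libraries with 100 or more counts in each Control library. The overlapping antisense gene TNFRSF14-AS1 had 0 and 4 counts in OE_CBX7 and 10 and 0 in Control, and whether counting used strand is not given. The next protein-coding gene, PRXL2B, was at 20.9 ± 2.06 CPM in OE_CBX7 and 13.7 ± 3.20 CPM in Control (SD, n = 2 each). It was called higher (edgeR adjusted p = 0.0183), but not without Control library 1 (0.0981) or OE_CBX7 library 1 (0.130).

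NT5E, whose product CD73 converts AMP to adenosine on the cell surface, lies on chromosome 6, 85450083 to 85495784. It had 79.9 and 72.9 CPM in the OE_CBX7 libraries, against 163 and 169 CPM in the Control libraries. Replicates were close in both groups, and the log2 fold change was -1.12 (SE 0.104, 95% interval -1.34 to -0.90, edgeR adjusted p = 2.62e-06). CD47, on chromosome 3, 108043091 to 108091031, had 63.2 and 58.4 CPM in the OE_CBX7 libraries, against 145 and 116 CPM in the Control libraries. The Control libraries of CD47 differed more from each other than those of NT5E, and the log2 fold change was -1.11 (SE 0.123, 95% interval -1.37 to -0.84, edgeR adjusted p = 1.59e-05). Both genes thus kept a little under 50% of their Control level, and 8.88% of tested genes had a more negative change than NT5E.

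CD276, VTCN1 and PVR were the members without a call. CD276 (B7-H3), a co-inhibitory B7 protein found on many carcinomas, lies on chromosome 15, 73683944 to 73714514, and had 54.6 and 54.1 CPM in the OE_CBX7 libraries, against 46.6 and 47.9 CPM in the Control libraries. Its log2 fold change was 0.20 (95% interval -0.03 to 0.43, edgeR adjusted p = 0.202). VTCN1 (B7-H4), another inhibitory B7 protein, lies on chromosome 1, 117143587 to 117210927. It had 333 and 316 counts in the OE_CBX7 libraries, or 3.56 and 3.503 CPM, against 205 and 114 counts in the Control libraries, or 2.38 and 1.67 CPM. Both OE_CBX7 libraries were higher than both Control libraries, but the Control libraries were spread, and the log2 fold change of 0.80 (95% interval 0.14 to 1.46, not adjusted for multiple tests) did not pass (edgeR adjusted p = 0.0740). PVR, on chromosome 19, 44643910 to 44666162, had 134 and 135 CPM in the OE_CBX7 libraries, against 154 and 159 CPM in the Control libraries. Its log2 fold change was -0.22 (95% interval -0.43 to -0.01, not adjusted, edgeR adjusted p = 0.115), so a fall of more than 0.43 lies outside the interval.

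**Figure D3:**
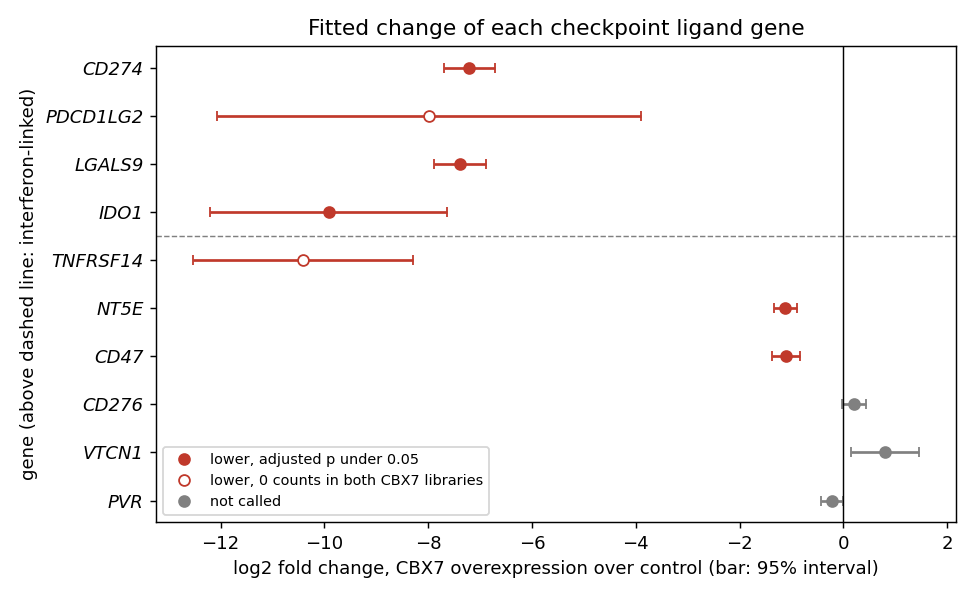
Fitted log2 fold change of OE_CBX7 over Control with 95% intervals for each gene. Interferon-linked genes are above the dashed line, from -9.92 to -7.21. Below it TNFRSF14 stands at -10.42, NT5E and CD47 near -1.1, and the genes that were not called (grey) between -0.22 and 0.80; open symbols are genes with 0 counts in both OE_CBX7 libraries, whose fitted value is no bound.

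Set side by side, the interferon-linked members had a median log2 fold change of -7.69 (4 of 4 called lower) and the other members a median of -0.66 (3 of 6 called lower), against a median of 0.00 over all tested genes. With the genes at 0 set to their bounds, the medians were -7.30 and -0.66. TNFRSF14 was the exception among the other members, with a fall as deep as the reads could show. No test was made between the 2 kinds of member, because the members were chosen with results known. By reads, the interferon-linked genes made up 0.172% and 0.171% of all member counts in the OE_CBX7 libraries, against 22% and 18% in the Control libraries. PVR, CD47, NT5E and CD276 together made up 98.8% and 98.7% in OE_CBX7, against 77.2% and 81.4% in Control. For each CD274 count there were 183 and 305 counts of CD276 in the OE_CBX7 libraries, against 1.32 and 1.33 in the Control libraries.

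Levels can be set against each other between genes only per length, and for this CPM was divided by the length in kb of all annotated exons (GENCODE 29), which can differ from the transcripts that these cells use. In OE_CBX7 cells the order was PVR (38.2 ± 0.317 CPM per kb), NT5E (16.8 ± 1.09), CD276 (9.80 ± 0.0648), CD47 (7.39 ± 0.419), VTCN1 (1.17 ± 0.0124), CD274 (0.0580 ± 0.0209), LGALS9 (0.0498 ± 0.0202) and IDO1 (0.0132 ± 0.0138), with TNFRSF14 and PDCD1LG2 at 0 (CPM per kb, SD, n = 2). Only CD274 and LGALS9 overlapped in that order. In Control cells it was PVR (44.5 ± 1.13 CPM per kb), NT5E (36.6 ± 1.07), CD47 (15.9 ± 2.50), IDO1 (13.3 ± 5.95), CD274 (8.65 ± 0.118), CD276 (8.52 ± 0.160), LGALS9 (8.35 ± 1.11), VTCN1 (0.669 ± 0.166), TNFRSF14 (0.325 ± 0.0793) and PDCD1LG2 (0.157 ± 0.0207) (CPM per kb, SD, n = 2). There IDO1 overlapped with CD47 above it and with LGALS9 below it, and CD274, CD276 and LGALS9 overlapped with each other. CD274 and CD276 thus had like per-length levels in Control cells, and were 2 orders of magnitude apart in OE_CBX7 cells.

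The genes whose pattern over the 4 libraries was most like that of CD274 were HSH2D, BST2, IFITM3, ACTN2 and DAPP1, by the distance between log2 CPM profiles centred on their own means. The distances were 0.196 for HSH2D, 0.572 for BST2, 0.655 for IFITM3, 0.703 for ACTN2 and 0.706 for DAPP1, on the log2 scale over 4 libraries. HSH2D, an adaptor protein of lymphocyte signalling, had 0.0961 and 0.0665 CPM in OE_CBX7, against 14 and 14.7 CPM in Control. BST2, the virus-tethering protein tetherin, had 0.716 and 0.721 CPM in OE_CBX7, against 118 and 90.0 CPM in Control. ACTN2 and DAPP1 had 0 counts in both OE_CBX7 libraries, so their distances depend on the prior count of 2 that was added before taking logs.

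Regulators of PD-L1 fell with it in part. The counts below stand against shares of 13.9% lower and 10.5% higher over all tested genes. Of 34 listed regulators, all tested, 19 were lower, 3 higher and 12 not called, with a median log2 fold change of -0.52, and 16 of the 19 kept their call with any 1 library left out. IRF1, the factor that binds the CD274 promoter after interferon gamma, fell to 22.2 ± 0.338 CPM in OE_CBX7, against 375 ± 41.2 CPM in Control (SD, n = 2 each), a log2 fold change of -4.08 (edgeR adjusted p = 5.92e-12). STAT2, JUN and IRF2 also fell, with log2 fold changes of -3.57, -2.67 and -1.94. SOCS3, an inhibitor of JAK-STAT signalling that the series title names, was also lower, with a log2 fold change of -2.13 (edgeR adjusted p = 1.87e-07). The receptor chains IFNGR1 and IFNGR2 fell by 0.66 and 0.68 on the log2 scale, whereas IFNAR1 (log2 fold change -0.02, edgeR adjusted p = 0.931) and JAK1 (-0.12, edgeR adjusted p = 0.381) were not called. IFNAR2, the partner chain of IFNAR1, was called lower (-0.44, edgeR adjusted p = 0.0095), but was not among the 16 that kept their call. Of the CMTM proteins that stabilise PD-L1 at the membrane, CMTM4 rose to 156 ± 16.0 CPM in OE_CBX7, against 75.4 ± 3.43 CPM in Control (SD, n = 2 each, edgeR adjusted p = 8.79e-06), and CMTM6 was not called (84.7 ± 7.90 CPM in OE_CBX7, 86.8 ± 2.76 CPM in Control). Among 26 genes listed as markers of the interferon response, a list that shares members such as STAT2, IRF1 and IRF9 with the regulators of PD-L1, 24 of 25 tested were lower and 20 of those kept their call with any 1 library left out, with a median of -6.93. The interferon beta gene IFNB1 was at 31 and 0 counts in OE_CBX7 and 2035 and 1196 in Control and was not called (edgeR adjusted p = 0.0831). The interferon lambda gene IFNL1 was called lower, with 0 counts in both OE_CBX7 libraries against 2697 and 1460 in Control. Against the floor of 3 counts per library IFNL1 was at least 807-fold lower (edgeR adjusted p = 3.18e-10), if its 0 counts are not failed estimates. The floor covers counting error only, whereas IFNB1 differed by more than this between the OE_CBX7 libraries. IFNG was at 0 in all libraries.

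Of 41 further ligands and co-signalling molecules listed, 32 were tested, 12 were lower, 4 higher and 16 not called, with a median of -0.45, against 13.9% lower and 10.5% higher over all tested genes, and 10 of the lower and 1 of the higher kept their call with any 1 library left out. HLA-E, the ligand of the inhibitory NKG2A receptor, fell to 92.7 ± 8.17 CPM in OE_CBX7, against 598 ± 6.65 CPM in Control (SD, n = 2 each), a log2 fold change of -2.69 (edgeR adjusted p = 1.49e-10). CEACAM1, an adhesion molecule with inhibitory signalling, fell to 10.96 ± 2.06 CPM in OE_CBX7, against 88.4 ± 10.1 CPM in Control (SD, n = 2 each), a log2 fold change of -3.01 (edgeR adjusted p = 2.55e-09). The butyrophilins BTN3A1, BTN3A3 and BTN3A2, of which BTN3A1 presents phosphoantigens to gamma delta T cells, fell with log2 fold changes of -2.28, -2.53 and -1.37, though as near copies they may share reads. RAET1L, a ligand of the activating receptor NKG2D, fell with a log2 fold change of -5.17 (edgeR adjusted p = 1.36e-06). FGL1, a ligand of LAG-3, was the higher gene that kept its call, at 22.8 ± 1.26 CPM in OE_CBX7 and 8.80 ± 0.132 CPM in Control (SD, n = 2 each, edgeR adjusted p = 1.13e-05). Within the B7 family, ICOSLG, VSIR and NCR3LG1 were tested besides the members and were not called, with log2 fold changes of -0.24 to 0.16, and CD80, CD86 and HHLA2 had 15 counts or fewer in each library.

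**Figure D4:**
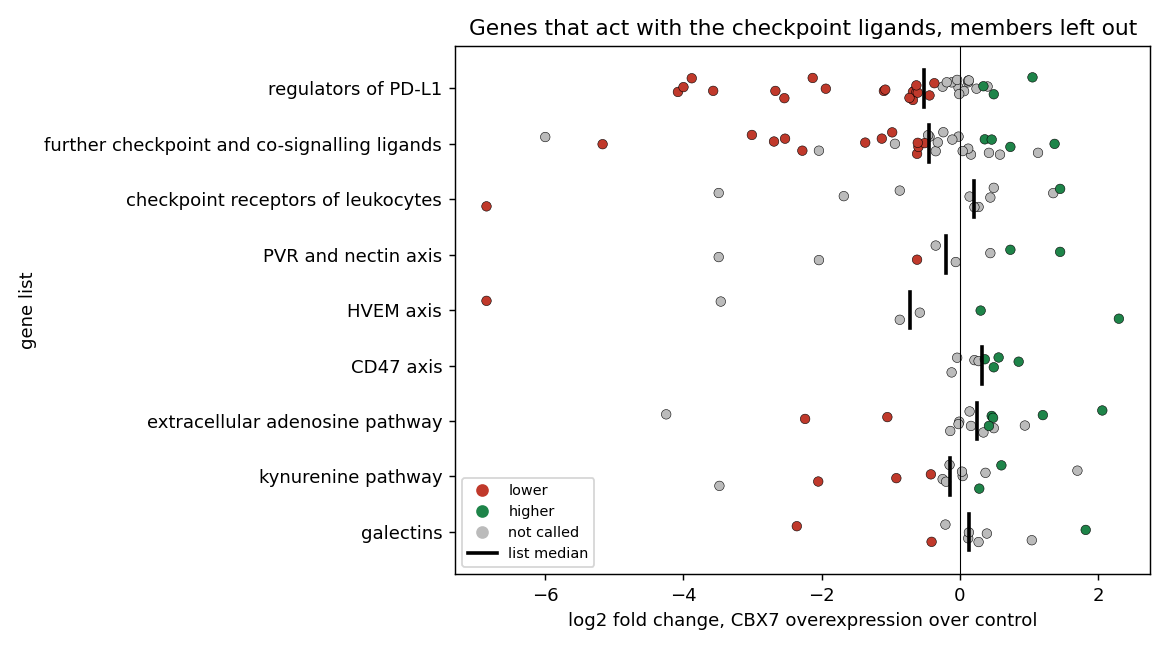
Log2 fold change of OE_CBX7 over Control for tested genes of 9 lists, members left out; each point is a gene and the black bar the list median. The lowest median is that of the HVEM axis (-0.73), and the highest that of the CD47 axis (0.31). The HVEM median lies between CD160 (-0.87) and LTB (-0.58), which were not called and had 32 counts or fewer in each library.

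Partners of the members were read against the shares of all tested genes, 13.9% lower and 10.5% higher. In the extracellular adenosine pathway without NT5E, 5 of 16 tested genes were higher and 2 lower (median 0.25), and 1 in each direction kept its call with any 1 library left out. These were the nucleoside transporter SLC29A2, at 18.6 ± 1.27 CPM in OE_CBX7 and 8.09 ± 1.20 CPM in Control (SD, n = 2 each, edgeR adjusted p = 0.000114), and the NAD-consuming ectoenzyme CD38, which fell to 147 ± 0.659 CPM in OE_CBX7, against 698 ± 79.6 CPM in Control (SD, n = 2 each, edgeR adjusted p = 1.66e-09). ENTPD1 (CD39), which supplies AMP to CD73, was at 27.4 ± 3.22 CPM in OE_CBX7 and 24.6 ± 2.50 CPM in Control (SD, n = 2 each, edgeR adjusted p = 0.445). In the CD47 axis without CD47, 4 of 8 tested genes were higher and 0 lower (median 0.31). THBS1, a secreted ligand of CD47, was the gene that kept its call, at 61.1 ± 2.87 CPM in OE_CBX7 and 33.9 ± 0.705 CPM in Control (SD, n = 2 each, edgeR adjusted p = 8.31e-05). SIRPA was not called (55.1 ± 5.57 CPM in OE_CBX7, 47.7 ± 4.96 CPM in Control).

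In the kynurenine pathway without IDO1, 3 of 13 tested genes were lower and 2 higher (median -0.15), and the 2 that kept their call were WARS1 and KYNU. WARS1, which interferons also induce, is the tryptophanyl-tRNA synthetase and no enzyme of the kynurenine pathway itself. It fell to 86.6 ± 5.42 CPM in OE_CBX7, against 358 ± 64.7 CPM in Control (SD, n = 2 each, edgeR adjusted p = 2.21e-08). The list also held the receptor AHR and the transporter subunits SLC7A5 and SLC3A2. KYNU, the kynureninase, fell by 0.42 on the log2 scale (edgeR adjusted p = 0.00423). IDO2, the paralog beside IDO1, had 7 and 0 counts in OE_CBX7 and 47 and 22 in Control (edgeR adjusted p = 0.0762), and TDO2, which catalyses the same step, was at 3.70 ± 0.267 CPM in OE_CBX7 and 4.40 ± 0.662 CPM in Control (SD, n = 2 each, edgeR adjusted p = 0.543). Among galectins without LGALS9, 2 of 9 tested genes were lower and 1 higher (median 0.13). LGALS3BP, a galectin-binding glycoprotein and no galectin itself, fell to 211 ± 10.4 CPM in OE_CBX7, against 1079 ± 16.9 CPM in Control (SD, n = 2 each, edgeR adjusted p = 3.49e-10), and was the gene that kept its call. LGALS1 and LGALS3, widely expressed galectins, were not called, with log2 fold changes of 0.27 and -0.21.

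In the PVR and nectin axis without PVR, 1 of 8 tested genes was lower and 2 higher (median -0.21). NECTIN2, which shares the receptors TIGIT and CD226 with PVR, fell to 65.7 ± 3.85 CPM in OE_CBX7, against 101 ± 7.26 CPM in Control (SD, n = 2 each, edgeR adjusted p = 0.00109), and PVRIG, a receptor of NECTIN2, rose to 3.63 ± 0.389 CPM in OE_CBX7, against 1.33 ± 0.176 CPM in Control (SD, n = 2 each, edgeR adjusted p = 0.00438). NECTIN1 was called higher (log2 fold change 0.73, edgeR adjusted p = 0.0126) but not without Control library 1 (0.0671). In the HVEM axis without TNFRSF14, 1 of 6 tested genes was lower and 2 higher (median -0.73), and 0 of these calls held with every library left out in turn. BTLA had 0 counts in both OE_CBX7 libraries against 14 and 12 in Control, and LTBR, a receptor for the HVEM ligand LIGHT, had a log2 fold change of 0.30 (edgeR adjusted p = 0.0367). Its adjusted p was 0.161 without Control library 1, 0.145 without OE_CBX7 library 1 and 0.186 without OE_CBX7 library 2.

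Receptors for these ligands belong to leukocytes, and most had few reads. Of 25 such receptors 11 were tested, 1 was lower (BTLA) and 1 higher (PVRIG). Over all tested genes 13.9% were lower and 10.5% higher. PDCD1, CTLA4 and TIGIT had 4 counts or fewer in every library. The 15 leukocyte markers summed to 29.9 and 30.1 CPM in OE_CBX7, against 167 and 174 CPM in Control, so this sum moved with the checkpoint ligands. Most of it was CD68, a lysosomal protein, at 23.6 ± 0.0371 CPM in OE_CBX7 and 161 ± 4.85 CPM in Control (SD, n = 2 each). ITGAM, an integrin of myeloid cells, was also lower, at 0.822 and 0.820 CPM in OE_CBX7 and 6.13 and 4.59 CPM in Control (edgeR adjusted p = 2.22e-05). CD14, a lipopolysaccharide co-receptor of monocytes, was higher, at 3.09 and 2.52 CPM in OE_CBX7 and 1.25 and 1.36 CPM in Control (edgeR adjusted p = 0.0299). The defining marker PTPRC (CD45) had 9 and 0 counts in OE_CBX7 and 6 and 0 in Control, and CD3E, CD3D, MS4A1 and SPI1 were at 0 in all libraries. The 7 fibroblast markers summed to 8.91 and 8.05 CPM in OE_CBX7 and 5.71 and 8.28 CPM in Control. The 6 endothelial markers summed to 3.54 and 3.88 CPM in OE_CBX7 and 1.65 and 1.03 CPM in Control, mainly through CDH5, an endothelial cadherin, which was called higher (log2 fold change 1.73, edgeR adjusted p = 0.00868). The part of these markers in the results was not tested.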

How the data were processed

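RNA sequencing of A549 cells gave 4 libraries, 2 with CBX7 overexpression and 2 controls. The authors deposited estimated counts per gene, whole numbers that were not scaled for depth. The tools named, per the submitters' processing notes, are StringTie 2.2.1, HISAT2 2.2.1 and DESeq2, with build hg38 and no role for any. The annotation, and whether counting used strand, is not given in the sources used here.

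The members and lists were chosen with earlier results of these data known. Counts needed no rounding. After filterByExpr and TMM scaling, genes were tested with edgeR 4.0.16 (R 4.3.3; robust quasi-likelihood fit, group as the only term, Benjamini-Hochberg adjustment over 17271 genes). Standard errors came from the fold change and its F statistic, and intervals from the same fit. Tested on simulated counts with 200 changed genes, the fit gave a share of false calls above the nominal 0.05. Floors are 3 counts per library (0.0320 to 0.0440 CPM) and cover counting error only. Alternatives used DESeq2 1.42.0 and limma 3.58.1. Sampling noise did not account for the difference between replicates of a group (chi-square over its degrees of freedom, 42.3 for OE_CBX7 and 54.2 for Control).

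Named genes are the 10 members, CBX7, up to 5 called genes per list with the smallest p, the 5 genes most like CD274 (mean count of 50 or more) and neighbours; others, such as SOCS3, CMTM6, SIRPA or ENTPD1, were chosen after their values were seen. A gene that the rule would name is not reported here. Positions are from RefSeq GRCh38.p14.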

Additional observations from a re-analysis of the deposited data

How the results depend on the processing

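Of the 10 members, 7 were called lower and 0 higher under library totals, DESeq2 size factors, no low-count filter, DESeq2, limma-voom and the replicate block, and 6 were lower at a mean count of 50 or more, where PDCD1LG2 was not tested. Leaving out 1 library gave 6 to 7; PDCD1LG2 was not called without either Control library (log2 fold change -8.19 to -7.83 over the fits with 1 library left out, adjusted p 0.0737 and 0.0580 without Control library 1 and 2). CD276, VTCN1 and PVR were not called in any of these fits. Same-numbered libraries did not deviate together (r = 0.0281). With 2 libraries per group this is 1 correlation over genes, which cannot show whether same-numbered libraries shared a culture or batch. The replicate block kept all 7 member calls and gave 2100 higher and 2503 lower genes. Over all genes, leaving out 1 library gave 1021 to 1790 higher calls. Counts in small lists (members included) moved. At a mean count of 50 or more there were 1 lower in the B7 family, 0 lower leukocyte receptors, 2 lower in the PVR and nectin axis, and 1 higher and 1 lower in the HVEM axis. With no filter there were 0 lower leukocyte receptors and 1 lower in the HVEM axis. The replicate block gave 0 lower receptors, 2 lower in the PVR axis, 1 higher and 1 lower in the HVEM axis and 2 higher galectins. DESeq2 gave 2 lower in the PVR axis, limma-voom 1 higher in the HVEM axis, and library totals 5 higher PD-L1 regulators and 2 higher galectins. With 1 library left out, lower counts were 1 to 2 in the B7 family, 0 for receptors in each fit, 1 to 2 in the PVR axis and 1 to 2 in the HVEM axis. Higher counts were 2 to 4 for further ligands, 0 to 1 in the kynurenine pathway, 2 to 5 in the adenosine pathway, 1 to 4 in the CD47 axis, 1 to 2 in the PVR axis, 0 to 1 in the HVEM axis and 0 to 2 for galectins. The cause of these changes was not tested. Reads in OE_CBX7 limit the size of the falls of CD274, LGALS9, IDO1, PDCD1LG2 and TNFRSF14.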
